A study of Arabidopsis thaliana with 4 samples.

Results

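The 6 nuclear genes for plastid sigma factors, SIG1 to SIG6, were followed through the mRNA and splicing of etiolated Arabidopsis thaliana seedlings. They were taken by their gene identifiers (SIG1 AT1G64860, SIG2 AT1G08540, SIG3 AT3G53920, SIG4 AT5G13730, SIG5 AT5G24120 and SIG6 AT2G36990) from 33602 gene entries, not by any measured value. All 6 had values in every library and passed the filter of a mean of at least 1 RPKM, as did 17684 of the 18584 genes with 4 values. On RefSeq build TAIR10.1, SIG1 lies at chr1:24097736-24100970 and SIG2 at chr1:2703295-2706860 on the forward strand, and SIG3 at chr3:19960789-19963980, SIG4 at chr5:4429095-4430901, SIG5 at chr5:8157151-8160343 and SIG6 at chr2:15537225-15540139 on the reverse strand. Of the 22449 splicing events listed for total mRNA, 9 belonged to these genes, in SIG1, SIG3, SIG4 and SIG6. Polysomal values were listed for 4 of the 9 events, out of 7529 events with such values. None of the 9 was on the authors' list of 3809 light-regulated events.

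Plastid genes are transcribed by a bacterial-type polymerase whose core subunits are encoded in the plastid (rpoA, rpoB, rpoC1, rpoC2) and by phage-type polymerases encoded in the nucleus. The bacterial-type enzyme binds its promoters only with a sigma factor, and all plastid sigma factors come from nuclear genes, which gives the nucleus control over which plastid promoters are read as a seedling greens. SIG2 and SIG6 are known for early chloroplast development, with SIG2 serving plastid tRNA genes and psaJ, and SIG6 many photosynthesis genes. SIG1 is phosphorylated according to the redox state of the plastid, SIG3 serves psbN, SIG4 serves ndhF, and SIG5 is induced by blue light and stress and reads the light-responsive promoter of psbD.

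The seedlings were Col-0, wild type, 4 days old and dark-grown, and were harvested after 4 h of white light (L4h) or without light. RNA was either total RNA or polysomal RNA, the part bound to polysomes as a measure of what is being translated, and mRNA was purified from both with an Oligotex kit before Illumina sequencing. The 4 libraries were total mRNA light, total mRNA dark, polysomal mRNA light and polysomal mRNA dark, each the only library of its group, so no difference has a replicate check and no p-value was computed. The extraction method also differed between the fractions, the Pine Tree method for total RNA and phenol-chloroform for polysomal RNA, and the effects of fraction and extraction cannot be told apart.

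Listed reads per library ran from 61006149 to 91087442, with a median of 750 to 1465 reads per listed gene. The light and dark labels were checked on marker genes. PORA, the protochlorophyllide reductase of etiolated tissue, was at 2.00 RPKM in total mRNA light and 110 RPKM in total mRNA dark, and ELIP1, an early light-induced protein, at 156 RPKM in light and 1.74 RPKM in dark. All 9 marker genes were listed in every library, root and seed storage genes among them. The seed storage gene CRA1 was at 45.3 RPKM in polysomal mRNA light and 125 RPKM in polysomal mRNA dark, a difference past 2-fold, and its part in the results was not tested. In such bulk samples, fewer cells of a type and less RNA per cell cannot be told apart.

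Levels are given in RPKM, reads scaled to gene length and library size as deposited, so they can be compared between genes. SIG5 was at 94.1 RPKM in total mRNA light, 1.2 RPKM in total mRNA dark, 57.4 RPKM in polysomal mRNA light and 2.65 RPKM in polysomal mRNA dark. As deposited, it stood highest of the sigma factors in both light libraries and lowest in both dark libraries. SIG1 was at 59.7 RPKM in total mRNA light, 17.7 RPKM in total mRNA dark, 32.4 RPKM in polysomal mRNA light and 9.62 RPKM in polysomal mRNA dark. SIG2 was at 55.6 RPKM in total mRNA light, 15.6 RPKM in total mRNA dark, 50.5 RPKM in polysomal mRNA light and 18.9 RPKM in polysomal mRNA dark. Both were higher in the light library of each fraction. As deposited, SIG2 was at nearly the same level in the light libraries of both fractions while SIG1 was lower in the polysomal one. Such comparisons across fractions depend on how the fractions are scaled.

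SIG6 was at 41.6 RPKM in total mRNA light, 14.2 RPKM in total mRNA dark, 37.8 RPKM in polysomal mRNA light and 29.6 RPKM in polysomal mRNA dark. Its dark polysomal level was the highest of any sigma factor in that library. SIG4 was at 29.1 RPKM in total mRNA light, 11.7 RPKM in total mRNA dark, 25.8 RPKM in polysomal mRNA light and 16.9 RPKM in polysomal mRNA dark. SIG3 was at 20.5 RPKM in total mRNA light, 6.85 RPKM in total mRNA dark, 6.64 RPKM in polysomal mRNA light and 4.16 RPKM in polysomal mRNA dark. For SIG3 the total mRNA light library stood apart from the other 3, which lay within 4.16 to 6.85 RPKM.

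**Figure D1:**
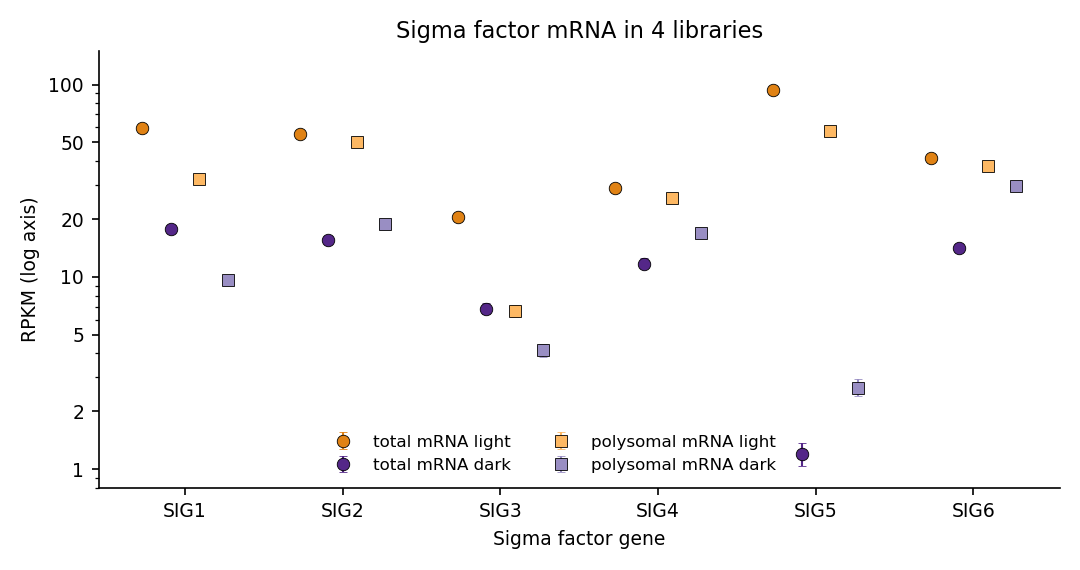
Level of each sigma factor gene (RPKM, log axis) in the 4 libraries, 1 point per library with its 95% counting interval. SIG5 runs from 1.2 RPKM in total mRNA dark to 94.1 RPKM in total mRNA light, while every other gene stays between 4.16 and 59.7 RPKM.

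The order of the levels differed between the libraries. In total mRNA light it ran SIG5, SIG1, SIG2, SIG6, SIG4, SIG3, and in total mRNA dark SIG1, SIG2, SIG6, SIG4, SIG3, SIG5. In polysomal mRNA light it ran SIG5, SIG2, SIG6, SIG1, SIG4, SIG3, and in polysomal mRNA dark SIG6, SIG2, SIG4, SIG1, SIG3, SIG5. On the deposited RPKM, the ratio of each of the 20 pairs of neighbours had a 95% exact binomial interval that excluded 1. These intervals cover counting error only and not the spread between seedling samples. They also do not cover the gene length used, on which the order of SIG5 and SIG2 in polysomal mRNA light depends. The closest neighbours were SIG1 over SIG2 in total mRNA light, at 1.07 times (1.05 to 1.1), and SIG2 over SIG6 in total mRNA dark, at 1.1 times (1.04 to 1.18). The deposited length of SIG1, 2.01 kb, is shorter than its annotated transcripts of 2200 and 2157 nt. Whether SIG1 stays above SIG2 with another length was not tested.

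A caution applies to SIG5 in the polysomal fraction. Its deposited RPKM there was 1.41 times what its deposited reads and its deposited length of 2.71 kb give, in both polysomal libraries, while for the other 5 genes the ratio lay between 0.993 and 1.03. Among all tested genes 10.5% had such a ratio of at least 1.2 in each polysomal library. Computed from reads and length, SIG5 was at 40.6 RPKM in polysomal mRNA light, below SIG2 at 49.7 RPKM computed the same way, and at 1.88 RPKM in polysomal mRNA dark. The annotated SIG5 transcripts are 2092, 2128 and 2165 nt long and their exons together cover 2635 nt. The length cancels in the RPKM fold of light over dark within a fraction but not on the log2(RPKM + 1) scale, where polysomal SIG5 was at 4.00 as deposited and 3.85 from reads and length.

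All 6 sigma factor mRNAs were at least 2-fold higher in total mRNA light than in total mRNA dark. Of the 17684 tested genes, 10.7% were at least 2-fold higher and 5.73% at least 2-fold lower on the same measure, the log2 ratio of (RPKM + 1). The median over the sigma factors was 1.60 and over all tested genes -0.02. SIG5, the sigma factor of the blue-light-responsive psbD promoter, had the largest difference of the 6, with 23352 reads in light and 212 reads in dark. It was 78.4-fold higher in RPKM (68.5 to 90.2), which is 5.43 on the log2(RPKM + 1) scale and place 12 of 17684 from the top.

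The other 5 lay between 2.48- and 3.55-fold. SIG2 was 3.55-fold higher (3.39 to 3.73) and SIG1 3.37-fold higher (3.23 to 3.53) in total mRNA light. SIG3 followed at 3.00-fold (2.79 to 3.22) and SIG6 at 2.94-fold (2.80 to 3.09). SIG4 had the smallest difference, 2.48-fold (2.31 to 2.65), with 3812 reads in light and 1100 reads in dark. The 3′ end of SIG4 shares 201 nt with AT5G13720, a protein-coding gene on the other strand, and whether reads were counted by strand is not given in the sources used here.

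**Figure D2:**
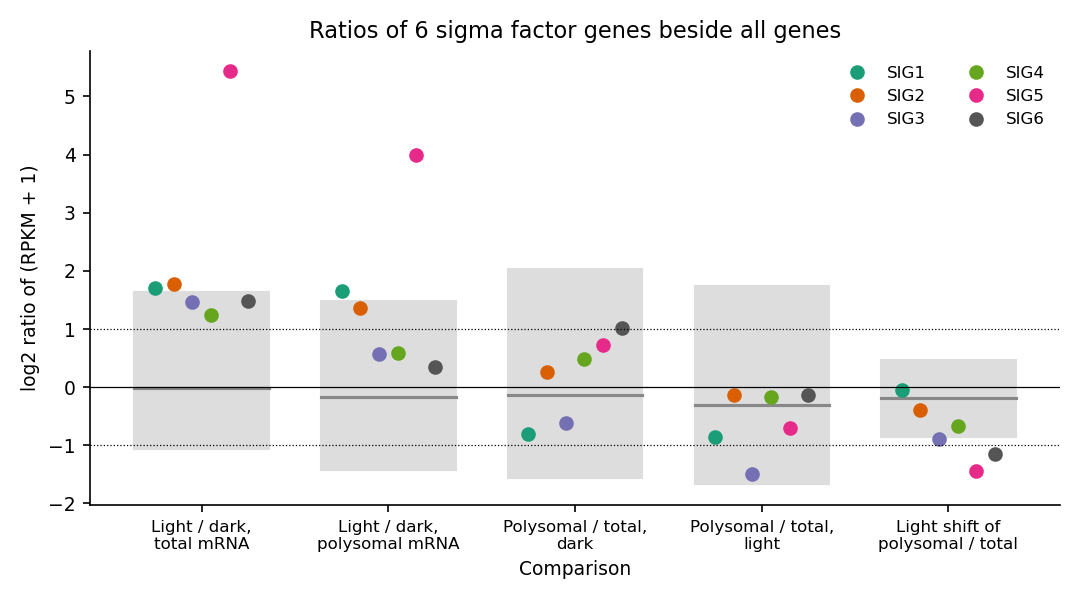
Ratios on the log2(RPKM + 1) scale for each sigma factor gene in the comparisons of light over dark and of polysomal over total mRNA, and in the light shift, 1 point per gene. Grey boxes span percentiles 5 to 95 of all tested genes, grey lines mark their median, and dotted lines mark a 2-fold difference. All 6 genes lie past 2-fold in total mRNA light over dark (1.24 to 5.43), and 3 of 6 in polysomal mRNA light over dark (0.35 to 4.00).

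The 250 bases before the annotated gene start are shown for SIG5, which differed most between light and dark, and for SIG3, the other gene whose window held a match to a searched motif. They were read from the RefSeq sequence of build TAIR10.1, 5′ to 3′ on the strand of the gene. The search covered both strands for the G-box CACGTG, the ACGT core that the G-box contains, the I-box GATAAG and the evening element AAAATATCT, and capitals mark the matches.
SIG5 promoter, chr5:8160344-8160593, reverse strand: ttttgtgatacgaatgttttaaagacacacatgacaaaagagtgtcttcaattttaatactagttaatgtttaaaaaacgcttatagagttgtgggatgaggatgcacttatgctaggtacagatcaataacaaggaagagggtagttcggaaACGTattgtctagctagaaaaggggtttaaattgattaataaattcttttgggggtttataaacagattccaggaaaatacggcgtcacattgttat
SIG3 promoter, chr3:19963981-19964230, reverse strand: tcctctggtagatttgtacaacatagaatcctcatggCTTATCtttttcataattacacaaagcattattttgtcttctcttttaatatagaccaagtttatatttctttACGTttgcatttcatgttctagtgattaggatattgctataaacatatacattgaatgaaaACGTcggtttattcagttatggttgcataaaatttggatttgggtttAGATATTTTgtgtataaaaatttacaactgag
The SIG5 window held 1 ACGT core, 97 bases before the gene start. The SIG3 window held 2 ACGT cores, 140 and 79 bases before the start, an I-box 213 bases before it and an evening element 32 bases before it. The G-box was in none of the 6 windows, and those of SIG1, SIG2, SIG4 and SIG6 held none of the motifs. Over the windows of 27443 genes, 44.1% held the ACGT core, 12.3% the I-box, 6.49% the G-box and 2.36% the evening element. The windows of SIG1, SIG2 and SIG6 also overlap a neighbouring protein-coding gene. The SIG3 window lies whole within AT3G00910, an annotated misc_RNA gene on the same strand, at chr3:19963980-19964603. The other windows were searched for overlap with protein-coding genes only.

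In polysomal mRNA, SIG5, SIG1 and SIG2 were at least 2-fold higher in light than in dark, and the other 3 were not past 2-fold. The background in this comparison was 9.35% of tested genes at least 2-fold higher and 10.3% lower, and the median was 0.97 over the sigma factors and -0.17 over all tested genes. SIG5 was 21.6-fold higher (19.5 to 24.0), with 6714 reads in light and 397 reads in dark, at place 22 of 17684 from the top. SIG1 was 3.36-fold higher (3.17 to 3.57), against its 3.37-fold in total mRNA. SIG2 was 2.67-fold higher (2.56 to 2.79).

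The other 3 had polysomal light over dark ratios of 1.60 for SIG3 (1.44 to 1.77), 1.52 for SIG4 (1.43 to 1.62) and 1.28 for SIG6 (1.23 to 1.33). These 3 genes had all been past 2-fold in total mRNA. Centring all genes on their median moved the all-gene median of this comparison by 0.22 on the log2 scale and raised the share of calls that were higher to 64.5%, against 47.7% as deposited. The 3 calls among the sigma factors were the same under every scaling tried.

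Polysomal over total mRNA ratios set the mRNA on polysomes against the mRNA present. Their log2 values are on the log2(RPKM + 1) scale, while the times and folds are ratios of RPKM. In light, SIG3 was 0.324 times its total level in polysomal mRNA (0.300 to 0.349), the only sigma factor past 2-fold lower as deposited. Its log2 value of -1.49 was -1.22 with centring and -0.79 with the trend of the ratio with gene length removed. Removing the trend meant subtracting the median of genes of like length, so this step also centred all genes. In this comparison 21.4% of tested genes were at least 2-fold lower and 12.8% higher. SIG1 was at 0.542 times (0.523 to 0.562) and SIG5 at 0.610 times (0.593 to 0.626) its total level. The SIG1 log2 ratio of -0.86 was -0.59 with centring, -0.29 with the length trend removed and -1.45, past 2-fold lower, with nuclear sums set equal. The SIG5 log2 ratio of -0.70 depended on the scaling and on the treatment of length. It was -0.43 with centring, 0.28 with the length trend removed and -1.20, past 2-fold lower, with RPKM from reads and length. No direction is given for SIG5. For SIG2 (0.909), SIG4 (0.886) and SIG6 (0.909) the log2 ratios of -0.14, -0.17 and -0.13 turned positive under 3 of the 4 scalings, to 0.14, 0.11 and 0.14 with centring, and no direction is given for these 3.

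In the dark, SIG6 was 2.09-fold higher in polysomal than in total mRNA (1.98 to 2.21), at the edge of the 2-fold call. Its log2 value of 1.01 became 0.85 with 5 added in place of 1. It was 0.45 with nuclear sums set equal and 1.44 with the length trend removed. No other sigma factor was past 2-fold as deposited on the log2(RPKM + 1) scale. The background was 16.5% of tested genes at least 2-fold higher and 16.2% lower. The ratio was 2.21 for SIG5 in RPKM (1.87 to 2.62), which is 0.73 on the log2(RPKM + 1) scale since 1 is added to low levels, and the value was 0.39 with RPKM from reads and length. It was past 2-fold higher at 1.5 with the length trend removed and at 1.08 with a pseudocount of 0.1. The ratio was 1.44 for SIG4 (1.34 to 1.56) and 1.21 for SIG2 (1.14 to 1.28), and with nuclear sums set equal their log2 values of 0.49 and 0.26 turned to -0.06 and -0.30, so no direction is given for either. SIG3 was at 0.607 times (0.548 to 0.671) and SIG1 at 0.544 times (0.510 to 0.581) its total level. Their log2 values of -0.61 and -0.81 became -0.11 and -0.39 with the length trend removed. With nuclear sums set equal they were past 2-fold lower, at -1.10 and -1.36. SIG1 thus had nearly the same ratio in the dark as in light, where it was 0.542.

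These comparisons depend on how the fractions are scaled to each other. TMM scaling, which sets the bulk of genes equal, moved the log2 ratios of single genes by a median of 0.47 in light and 0.25 in dark. It raised the share of calls that were higher to 70.1% in light, against 37.4% as deposited, and to 66.9% in dark, against 50.4%. Setting the nuclear sums equal moved the log2 ratios of single genes by a median of -0.54 in light and -0.53 in dark, with 13.3% and 20.7% of calls higher.

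The light shift is the polysomal over total ratio in light divided by that in the dark. For SIG5 it was 0.276 in RPKM (0.233 to 0.327). On the log2(RPKM + 1) scale, used for the places and calls, it was -1.44, at place 201 of 17684 from the lowest. For SIG6 it was 0.435 in RPKM (0.408 to 0.464) and -1.15 on the log2(RPKM + 1) scale, at place 392 from the lowest. These 2 of 6 were past 2-fold lower, where 3.27% of tested genes were, and 0.741% were past 2-fold higher. SIG6 was no longer past 2-fold after centring all genes on their median, at -0.94, and SIG5 and SIG6 were both at -0.97 with 5 added in place of 1.

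SIG3 (0.534), SIG4 (0.614) and SIG2 (0.752) had shifts below 1 that did not pass 2-fold. SIG1 had a shift of 0.997 (0.925 to 1.07), an interval that includes 1. The median shift on the log2(RPKM + 1) scale was -0.77 over the sigma factors and -0.18 over all tested genes. Centring moves the latter by 0.21. In SIG6 the small polysomal difference of 1.28-fold went with a high polysomal level in the dark already. As deposited it was 29.6 RPKM in polysomal mRNA dark against 14.2 RPKM in total mRNA dark, a difference whose size depends on the scaling of the fractions.

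Summed over the 6 genes, sigma factor mRNA was at 300.5 RPKM in total mRNA light and 67.3 RPKM in total mRNA dark, 4.47 times. In polysomal mRNA the sum was 210.4 RPKM in light and 81.8 RPKM in dark, 2.57 times. Without SIG5 the folds of the sums were 3.13 in total and 1.93 in polysomal mRNA. SIG5 made up 31.3% of the sum in total mRNA light and 1.78% in total mRNA dark, and 27.3% in polysomal mRNA light and 3.24% in polysomal mRNA dark. With RPKM from reads and length its polysomal shares were 21.2% in light and 2.35% in dark. SIG6 held 18.0% of the sum in polysomal mRNA light and 36.1% in polysomal mRNA dark.

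**Figure D3:**
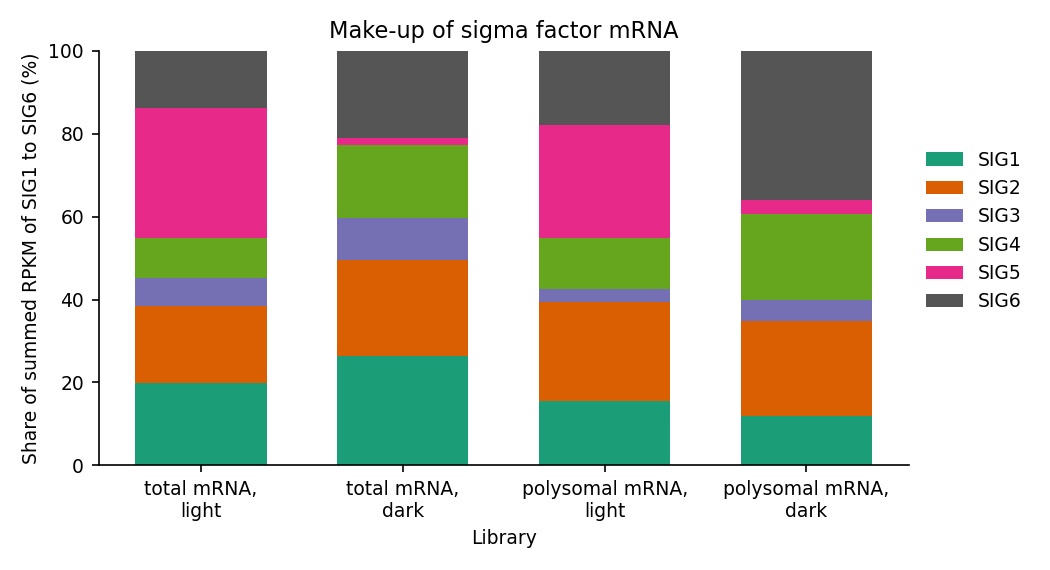
Share of each gene in the summed RPKM of SIG1 to SIG6 (percent), 1 stacked bar per library. SIG5 fills 31.3% of the bar of total mRNA light and 1.78% of that of total mRNA dark, and SIG6 36.1% of that of polysomal mRNA dark.

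Each sigma factor was set beside the 4728 named genes that averaged 10 RPKM or more, by the root mean square difference of the log2 levels over the 4 libraries after removing each gene's mean. With 4 libraries this likeness is a description only. SIG4 had the closest neighbour, the glutathione transferase gene GSTU19, at 0.024, and SIG1 was closest to UGT74D1 (0.054), EXPA1 (0.057) and the chlorophyllide a oxygenase gene CH1 (0.060). SIG2 was closest to BASS2 (0.065), ATPC1 (0.079) and the chlorophyll synthase gene G4 (0.079), SIG3 to CFM3A (0.080), and SIG6 to LSMT-L (0.076) and HCF101 (0.103). SIG5 had no neighbour nearer than 0.198, the distance to XTH7. Within the family SIG4 and SIG6 were the most alike (0.18), and SIG5 was 1.59 to 1.93 from each of the others.

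Splicing events are given as the percent of reads over the site that show the event, with a 95% Wilson interval from the reads in total mRNA. The 9 events were 6 retained introns, out of 39 introns in the first annotated model of the 6 genes, and 3 alternative acceptor sites. SIG2 and SIG5 had no listed event. Against a ratio of at least 1.5 in light over dark in total mRNA, 2 of 9 events were higher, where 27.2% of all events were, and 1 of 9 was lower, where 24.9% were, so the counts do not stand out from the background. For every event the light and dark intervals overlapped.

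SIG4 had the most frequent events of the family, both at its intron 2. Intron 2 was retained in 164 of 490 reads in total mRNA light (33.5%, 29.4 to 37.8) and in 53 of 183 reads in total mRNA dark (29.0%, 22.9 to 35.9). An acceptor 14 nt upstream of the annotated end of intron 2 was used in 123 of 286 reads in total mRNA light (43.0%, 37.4 to 48.8) and in 36 of 101 reads in total mRNA dark (35.6%, 27.0 to 45.4). The authors' deposited table gives an unadjusted chi-square p of 0.183 for the first and 0.101 for the second, and the ratios of 1.16 and 1.21 were under 1.5. Intron 3 of SIG4 was retained in 44 of 694 reads in total mRNA light (6.34%, 4.76 to 8.40) and in 5 of 211 reads in total mRNA dark (2.37%, 1.02 to 5.43), a ratio of 2.68 with an unadjusted p of 0.0232 in the authors' deposited table.

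The sequences at these sites follow from the RefSeq genome TAIR10.1, on the strand of the gene. In the introns, capitals mark the GT at the start, the first in-frame stop codon and the AG at the end, and at the acceptor they mark the alternative AG and, 14 nt after it, the annotated AG.
SIG4 intron 2, chr5:4429685-4429868, reverse strand: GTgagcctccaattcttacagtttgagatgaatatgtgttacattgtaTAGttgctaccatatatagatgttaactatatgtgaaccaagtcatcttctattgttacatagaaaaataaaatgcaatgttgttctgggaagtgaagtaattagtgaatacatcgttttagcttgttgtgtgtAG
SIG4 intron 3, chr5:4429420-4429483, reverse strand: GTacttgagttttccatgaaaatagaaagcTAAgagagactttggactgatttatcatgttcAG
SIG4 intron 2 acceptor, chr5:4429665-4429714, reverse strand: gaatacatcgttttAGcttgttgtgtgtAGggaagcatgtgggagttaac
Neither the 184 nt of intron 2, the 64 nt of intron 3 nor the 14 nt of the alternative acceptor is a multiple of 3. The annotated SIG4 frame has 1260 coding nt. Read through intron 2, it meets a TAG and ends after 822 nt, through intron 3 it meets a TAA and ends after 1005 nt, and with the alternative acceptor it ends after 804 nt.

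SIG3 had 4 events, and only retention of intron 7 reached a ratio of 1.5. It was seen in 76 of 366 reads in total mRNA light (20.8%, 16.9 to 25.2) and in 11 of 93 reads in total mRNA dark (11.8%, 6.73 to 19.9), a ratio of 1.76 with an unadjusted p of 0.0344 in the authors' deposited table. This form equals an annotated transcript, AT3G53920.2. Intron 5 was retained in 26 of 278 reads in light (9.35%) and in 6 of 62 reads in dark (9.68%), and intron 6 in 14 of 352 reads in light (3.98%) and in 5 of 95 reads in dark (5.26%). An acceptor 4 nt into the following exon was used after intron 5 in 17 of 143 reads in light (11.9%) and in 5 of 33 reads in dark (15.2%). With at most 6 event reads in the dark at these sites, the intervals are wide, and what size of difference this depth could detect was not tested.

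For SIG3, intron 7 is shown with the GT, the first in-frame stop and the AG in capitals, and the acceptor of intron 5 with the annotated AG and the alternative AG 4 nt after it.
SIG3 intron 7, chr3:19961746-19961839, reverse strand: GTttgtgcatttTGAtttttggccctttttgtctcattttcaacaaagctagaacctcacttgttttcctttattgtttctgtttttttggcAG
SIG3 intron 5 acceptor, chr3:19962392-19962441, reverse strand: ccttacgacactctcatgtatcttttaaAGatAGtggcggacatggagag
Retention of intron 7 (94 nt) brings a TGA 13 nt into the intron, so that the frame ends after 1245 nt against 1716 nt as annotated. The other SIG3 events end it earlier, after 882 nt with intron 5 retained, 1107 nt with intron 6 retained and 912 nt with the alternative acceptor.

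In SIG1 an acceptor 5 nt into exon 10 was used in 45 of 815 reads in total mRNA light (5.52%, 4.15 to 7.31) and in 18 of 179 reads in total mRNA dark (10.1%, 6.46 to 15.3). The ratio of 0.549 was past 1.5 in the lower direction, with an unadjusted p of 0.0179 in the authors' deposited table. The site is that of the annotated transcript AT1G64860.2. Its 5 nt are not a multiple of 3, so the reading frame shifts from there. Unlike the events in SIG3, SIG4 and SIG6, it ends the frame near the annotated length, after 1497 nt against 1509 nt. Intron 5 of SIG6 was retained in 26 of 686 reads in light (3.79%) and in 10 of 178 reads in dark (5.62%), a ratio of 0.675, and its retention ends the frame after 855 of 1644 nt. In the SIG1 sequence capitals mark the annotated AG and the alternative AG 5 nt after it.
SIG1 intron 9 acceptor, chr1:24100608-24100657, forward strand: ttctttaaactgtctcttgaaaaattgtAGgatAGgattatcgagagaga

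**Figure D4:**
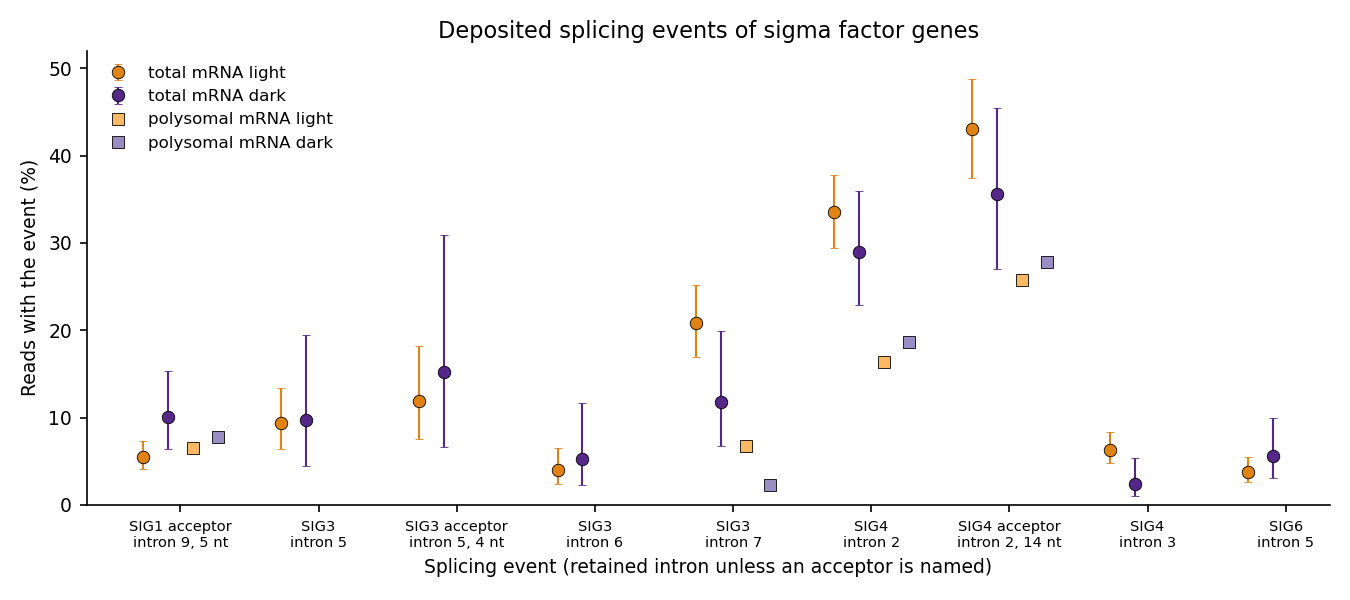
Percent of reads with each of the 9 splicing events in the 4 libraries, circles for total mRNA with 95% Wilson intervals and squares for polysomal mRNA, whose read numbers are not given. The SIG4 events at intron 2 are the most frequent (43.0% and 33.5% in total mRNA light), and their polysomal values lie below their total values.

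Polysomal values were listed for 1 of the 4 SIG3 events and 2 of the 3 SIG4 events, and these 3 were at lower percents than in total mRNA. Retention of SIG3 intron 7 was at 6.78% in polysomal mRNA light and 2.27% in polysomal mRNA dark, 0.326 and 0.192 times the total values. Retention of SIG4 intron 2 was at 16.4% in polysomal mRNA light and 18.7% in polysomal mRNA dark, 0.489 and 0.645 times the total values. The SIG4 acceptor was at 25.7% in polysomal mRNA light and 27.8% in polysomal mRNA dark, 0.598 and 0.780 times. The SIG1 acceptor, which shifts the frame but ends it near the annotated length, was at 6.49% in light and 7.83% in dark. These were 1.18 and 0.778 times the total values.

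Past a ratio of 1.5, 3 of the 4 events were lower in polysomal mRNA in light, where 31.4% of all events were lower and 16.4% higher. In the dark it was 2 of 4, where 25.9% of all events were lower and 22.0% higher. Of all retained introns with polysomal values, 72.9% were lower in polysomal than in total mRNA in light and 57.4% in the dark, and of all alternative splice sites, the type of the SIG1 and SIG4 acceptors, 49.8% in light and 46.4% in the dark. Between light and dark in polysomal mRNA, 1 of 4 events was at least 1.5 times higher, SIG3 intron 7 at 2.98 times, where 18.6% of all events were, and none was lower, where 30.1% were. The depth of the polysomal events is unknown, so no interval can be given for them.

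Genes that work with the sigma factors were taken from lists and compared on the same log2(RPKM + 1) scale. Of the 4 core subunits of the bacterial-type polymerase, rpoA and rpoB could be compared. Neither was past 2-fold in light over dark, with -0.11 and -0.10 in total mRNA and -0.12 and -0.03 in polysomal mRNA. Their polysomal levels were 0.476 to 0.759 RPKM, under the 1 that is added, where a 2-fold difference would not be called. Of the 3 phage-type polymerases, RPOTp of the plastid was higher in total mRNA light (2.02), while RPOTmp (0.66) and RPOTm (0.88) were not past 2-fold. In polysomal mRNA none of the 3 was past 2-fold on this scale, with 0.86, 0.29 and 0.10. Polysomal RPOTp was at 4.34 RPKM in light and 1.95 RPKM in dark, past 2-fold in RPKM. RPOTmp was at 0.683 and 0.379 RPKM and RPOTm at 1.53 and 1.36 RPKM. At such low levels the 1 added draws the ratios toward 0. Of the 12 proteins that associate with the bacterial-type polymerase, 10 were higher in total mRNA light and 6 in polysomal mRNA light, and none lower, where 10.7% and 9.35% of all tested genes were higher and 5.73% and 10.3% lower. Their medians were 1.38 and 0.96, beside 1.60 and 0.97 for the sigma factors, with PAP12 highest in total mRNA (2.30), the thioredoxin PAP10 highest in polysomal mRNA (2.10) and the superoxide dismutase PAP9 lowest in both (-0.16 and 0.19).

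Among sigma factor binding proteins and kinases, the sensor kinase CSK was higher in total mRNA light (1.25) and not past 2-fold in polysomal mRNA (0.65). The SIG1-binding protein SIB2 was at -0.65 in total and -0.83 in polysomal mRNA, and the plastid casein kinase CKA4 at -0.60 and -0.19. Of the 12 plastid genes with a known sigma preference 10 could be compared (not psbH or the SIG4 target ndhF). In total mRNA 1 was at least 2-fold higher in light and 0 lower, where 10.7% and 5.73% of all tested genes were. In polysomal mRNA 0 were past 2-fold, where 9.35% were higher and 10.3% lower. The count in total mRNA does not stand out from the background. The 1 gene was psaJ, a target of SIG2. It was at 22.2 RPKM in total mRNA light and 1.69 RPKM in total mRNA dark, the latter close to the 1 RPKM used as the filter on means. In polysomal mRNA it was at 11.8 RPKM in light and 14.9 RPKM in dark. psbD, the target of SIG5, was at 0.42 in total and 0.01 in polysomal mRNA on the log2 scale. psbN, the target of SIG3, was at 2.59 RPKM in total mRNA light and 1.19 RPKM in total mRNA dark, 0.71 on that scale. In polysomal mRNA psbN was at 0.616 RPKM in light and 0.289 RPKM in dark, 0.33 on that scale. Since 1 is added to RPKM, a 2-fold difference at such low levels can go uncalled, which limits both counts. Plastid genes took 0.149% to 0.325% of the listed reads after the mRNA purification, and how much of the plastid RNA this captured was not tested.

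**Figure D5:**
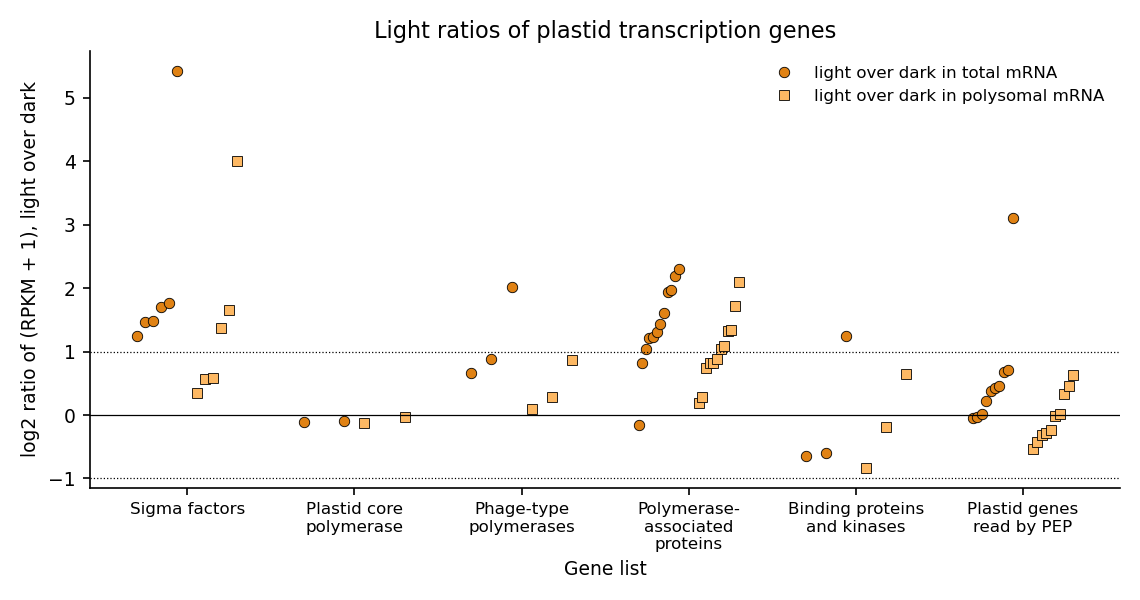
Log2 ratio of (RPKM + 1), light over dark, for the sigma factor genes and the genes of each list, 1 point per gene, circles for total and squares for polysomal mRNA (PEP is the bacterial-type plastid polymerase). The sigma factors have medians of 1.60 and 0.97 and the polymerase-associated proteins 1.38 and 0.96, while rpoA and rpoB lie near 0. In polysomal mRNA rpoA and rpoB were under 1 RPKM, where the 1 added draws ratios toward 0.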

How the data were processed

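Etiolated seedlings were measured by sequencing in 4 libraries, 1 per group. The authors' deposited table gives read counts and RPKM per gene for total mRNA, and estimated counts (20.4% and 19.8% of values are not whole) and RPKM for polysomal mRNA, per the file headers. Deposited event tables give event read counts, percent values, log2 ratios and a chi-square p-value by the authors, per the file headers. The build is TAIR10, per the submitters' processing notes; the sources used here give no aligner, counting program or strand setting. Ratios were taken as log2 of (RPKM + 1) over 17684 genes averaging at least 1 RPKM, and called past 2-fold. Fold intervals are exact binomial from the reads, those of the shift use a normal approximation on the log scale, and those of percents are Wilson intervals; all are at 95% and cover counting error only. Event totals were recovered from reads and percent. Event positions were placed on RefSeq build TAIR10.1, where all 6 retained introns run from GT to AG. The ratio code was tested on simulated data. Pseudocounts, filters, scalings (TMM by edgeR 4.0.16 in R 4.3.3), lengths and event thresholds were varied. Named were the 6 genes, all their events, the extremes of each list, each member of short lists, and up to 3 neighbours in pattern. Genes and lists were chosen with earlier results of these data known.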

Additional observations from a re-analysis of the deposited data

Results flagged for a closer look

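The events at intron 2 of SIG4 had opposite directions in the fractions. Retention of intron 2 differed between light and dark by 4.5 percentage points in total mRNA and by -2.3 points in polysomal mRNA. Use of the acceptor 14 nt upstream differed by 7.4 points in total mRNA and by -2.1 points in polysomal mRNA. The difference between the fractions was not tested, each value rests on 1 library, and in total mRNA the light and dark intervals overlapped.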

How the results depend on the processing

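The counts of sigma factors past 2-fold in light over dark (6 in total and 3 in polysomal mRNA) were the same under every alternative run. Of 288 sigma factor ratios under an alternative, 17 changed their call and 0 of the called ratios changed sign, while some ratios that were not called did, such as the polysomal over total ratio of SIG5 in light. The number higher in polysomal than total mRNA in the dark, 1 as reported, was 2 with a pseudocount of 0.1 and with the length trend removed, and 0 with a pseudocount of 5, with nuclear sums set equal and with RPKM from reads and length; the number lower, 0 as reported, was 2 with nuclear sums equal. In light, the number lower, 1 as reported, was 3 with nuclear sums equal, 2 with RPKM from reads and length and 0 with the length trend removed. The number with a lower light shift, 2 as reported, was 0 with a pseudocount of 5 and 1 with centring, TMM, median of ratios and the length trend removed. A difference of at least 10 percentage points, in place of a ratio of 1.5, was reached by 0 events in either fraction and direction, against 2 higher and 1 lower in total and 1 higher in polysomal mRNA. The cause of these changes was not tested. No paired analysis was possible because each group held 1 library, which also leaves no replicate to leave out. Depth limits SIG5 in the dark (212 reads) and the dark events of SIG3 and SIG4.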

Other observations

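Photoreceptors and transcription factors known to act on SIG5 were also measured in these libraries. HY5 and HYH, related light-signalling transcription factors, were higher in light, with log2 ratios of 2.07 and 3.81 in total mRNA and 1.88 and 3.72 in polysomal mRNA. PHYA, the far-red photoreceptor gene, was lower in light, at -1.86 in total and -2.37 in polysomal mRNA. The blue light receptor genes CRY1 and CRY2 and the red light receptor gene PHYB were not past 2-fold, with -0.38 to 0.42 in total mRNA. Of these 6 genes, 2 were higher and 1 was lower in each fraction, and none had a light shift past 2-fold. Of all tested genes, 10.7% were higher and 5.73% lower in total mRNA, and 9.35% higher and 10.3% lower in polysomal mRNA.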
